A study of Mus musculus with 8 samples.

Results

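The interferon response genes Ifit1, Ifit2, Ifit3, Irf7, Stat2, Isg15, Oasl2, Bst2 and Usp18 were followed through open chromatin maps of mouse brain. They are 9 of 21887 protein-coding genes in the gene table and were taken by name. For each gene, every ATAC-seq peak was collected that overlapped the gene body extended by 5 kb on both sides on genome build mm10. ATAC-seq uses the Tn5 transposase to cut accessible DNA and tag it for sequencing.

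The series holds 8 libraries in 4 groups of 2, all from C57Bl/6J mice. In the dLGN, the thalamic relay of the visual pathway, mice at postnatal day 32 had been fed PLX chow or control chow since postnatal day 20. The labels spell the compound PLX5562 and give its purpose as depletion of microglia. In coronal brain sections holding cortex, hippocampus and dLGN, mice at postnatal day 27 were Fn14 KO or their Fn14 WT littermates and received no treatment. Fn14 is the receptor for the cytokine TWEAK and is encoded by Tnfrsf12a, and the KO is described without any Cre driver, so no cell type limits it in the labels. The dLGNs were microdissected and the sections were cut from flash-frozen brains, and each aliquot held 50000 nuclei. The labels do not say whether the libraries of a group came from separate animals, so p-values measure the spread between these libraries, which may be technical.

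Type I interferons bind the receptor Ifnar1/Ifnar2 and activate the kinases Jak1 and Tyk2, which phosphorylate Stat2. With Irf9, Stat2 enters a complex that binds interferon-stimulated response elements (ISREs) and turns on genes whose products block viral RNA, translation and budding, while Usp18 and others shut the pathway off. In the brain microglia are a known strong responder, and neurons, astrocytes and endothelial cells respond too.

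The deposited lists held 248989 to 299822 peaks per library, and overlapping peaks merged into 192168 (Fn14 WT 1) to 218214 (Fn14 KO 2) regions. Every library was cut to its 192168 strongest regions. Accessibility was compared as log2(N / rank), where N is 192168 and rank is a region's place by the −log10 p of the authors' peak caller, so that a difference of 1 is a doubling in rank and a region with no peak gets 0. Read depth is unknown. Regions were tested with limma where at least 2 libraries held a peak, with Benjamini-Hochberg adjustment over 266442 regions. In the libraries labelled Fn14 KO no peak lay over the Tnfrsf12a start, against −log10 p values of 13.6 and 8.02 in Fn14 WT.

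The promoter sequences below are shown because the 9 genes share a known response element in part, while their starts were open to very different degrees. They are RefSeq windows of assembly GRCm38.p6 (the mm10 build) from 250 bases before to 50 bases after an annotated start, 5′ to 3′ on the gene's strand. Capitals mark the ISRE core GAAANNGAAA (reverse complement TTTCNNTTTC) and the GAS element TTCNNNGAA, the site bound by STAT dimers, searched on both strands.
Isg15 (chr4:156200769-156201068, minus strand): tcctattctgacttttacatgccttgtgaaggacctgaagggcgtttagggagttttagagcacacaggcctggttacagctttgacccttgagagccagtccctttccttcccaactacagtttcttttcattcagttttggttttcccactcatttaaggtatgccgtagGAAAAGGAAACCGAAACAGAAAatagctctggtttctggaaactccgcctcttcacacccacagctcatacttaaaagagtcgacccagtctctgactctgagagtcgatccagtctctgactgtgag
Ifit1 (chr19:34640639-34640938, plus strand): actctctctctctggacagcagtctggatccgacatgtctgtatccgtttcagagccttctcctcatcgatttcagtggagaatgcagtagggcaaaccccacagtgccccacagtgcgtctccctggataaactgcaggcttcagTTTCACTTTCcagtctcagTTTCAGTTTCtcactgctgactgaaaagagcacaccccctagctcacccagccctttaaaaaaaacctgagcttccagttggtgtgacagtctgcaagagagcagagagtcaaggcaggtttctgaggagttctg
Ifit3 (chr19:34583279-34583578, plus strand): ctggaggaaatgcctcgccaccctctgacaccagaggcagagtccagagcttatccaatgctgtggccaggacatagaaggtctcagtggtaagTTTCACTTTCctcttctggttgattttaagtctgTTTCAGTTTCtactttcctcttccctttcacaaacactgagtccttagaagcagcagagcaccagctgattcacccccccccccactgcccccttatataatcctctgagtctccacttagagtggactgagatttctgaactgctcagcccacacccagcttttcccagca
Bst2 (chr8:71537423-71537722, minus strand): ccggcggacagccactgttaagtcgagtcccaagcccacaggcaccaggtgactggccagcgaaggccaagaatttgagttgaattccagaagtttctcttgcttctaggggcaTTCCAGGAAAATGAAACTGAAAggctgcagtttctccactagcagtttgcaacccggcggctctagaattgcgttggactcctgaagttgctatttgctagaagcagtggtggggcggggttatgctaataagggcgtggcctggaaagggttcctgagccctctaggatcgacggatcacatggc
Stat2 (chr10:128270248-128270547, plus strand): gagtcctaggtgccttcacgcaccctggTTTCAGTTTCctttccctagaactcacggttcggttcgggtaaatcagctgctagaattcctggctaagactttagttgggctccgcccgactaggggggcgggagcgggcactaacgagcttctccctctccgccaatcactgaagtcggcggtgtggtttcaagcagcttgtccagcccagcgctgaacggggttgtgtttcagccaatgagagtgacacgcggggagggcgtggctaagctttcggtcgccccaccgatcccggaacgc
Ifit2 (chr19:34550444-34550743, plus strand): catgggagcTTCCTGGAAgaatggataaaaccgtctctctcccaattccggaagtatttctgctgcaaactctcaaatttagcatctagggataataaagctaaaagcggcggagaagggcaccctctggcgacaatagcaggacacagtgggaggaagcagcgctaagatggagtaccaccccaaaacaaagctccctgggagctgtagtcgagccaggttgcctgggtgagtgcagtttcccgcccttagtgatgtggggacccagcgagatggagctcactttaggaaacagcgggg

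Of the 8 genes with a window, 5 held an ISRE core (Ifit1, Ifit3, Stat2, Isg15 and Bst2), against 689 of 17492 genes with a window (3.94%). A GAS element stood in 2 of the 8 (Ifit2 and Bst2), against 8.92% of genes. Isg15, a ubiquitin-like protein that is joined to other proteins, had 3 overlapping ISRE cores whose first bases were at −78, −72 and −66 from the start. Ifit1 and Ifit3, which encode tetratricopeptide proteins that act on viral RNA, had separate cores at −104 and −85 in Ifit1 and at −156 and −122 in Ifit3. Bst2, or tetherin, which holds budding virus on the cell surface, had overlapping cores at −130 and −124 and a GAS element at −136 that overlapped the core at −130. Stat2 had its single core at −222. Ifit2 had no ISRE core in this window and a GAS element at −241. Irf7 and Oasl2 matched neither motif in their windows, and Usp18 had no window in the table. A match is a description of the letters and not a bound site.

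The 9 genes held 40 regions in the 8 lists, of which 27 were tested and 13 had a peak in a single library. Of the 40, 14 (35.0%) were present in all 8 libraries, compared with 16.9% of all 406435 regions. These are unlike sets, since the 40 come from windows that include gene starts and the 406435 from the whole genome. Of all gene starts 60.4% had a peak in all 8 libraries. The libraries were close in total, with 22 and 23 regions in PLX chow, 25 and 26 in control chow, 26 and 24 in Fn14 KO and 25 and 25 in Fn14 WT. These totals and the counts per gene below are of a library's own regions, several of which can fall in 1 of the 40 shared regions. All genes but Oasl2 held a region in every library.

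**Figure D1:**
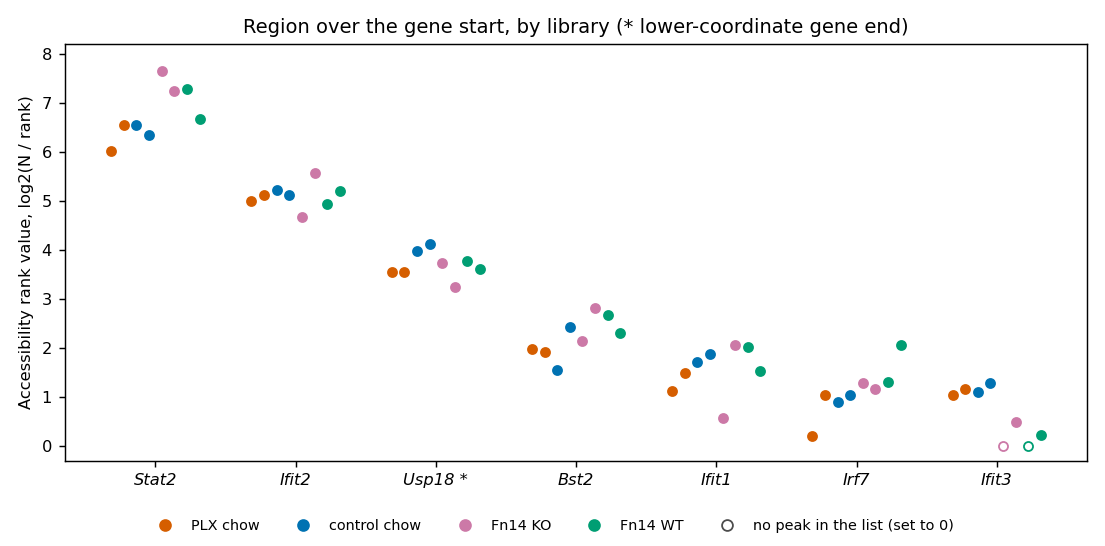
Accessibility of the region over each gene's start, as log2(N / rank), with 1 point per library coloured by group; an open point means no peak in the list, and for Usp18, whose strand is not in the table, the region at the gene's lower-coordinate end is drawn. Stat2 (6.01 to 7.64) and Ifit2 (4.68 to 5.56) lie above the other genes in every library, and Isg15 and Oasl2 have no peak in any.

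The starts of these genes were open to very different degrees, and the order was Stat2, Ifit2, Bst2, Ifit1, Irf7, Ifit3, with Isg15 and Oasl2 without a peak. Stat2, the signal carrier of the type I receptor, averaged 6.78 ± 0.55 on the log2(N / rank) scale (SD, n = 8 libraries), higher than 91.4% of 17492 gene starts. The Ifit2 start averaged 5.10 ± 0.25, higher than 75.2% of starts. The ranges of these starts did not overlap each other or those of any gene below them.

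The next levels ran into each other. The Bst2 start averaged 2.22 ± 0.42, that of Ifit1 1.55 ± 0.50 and that of Irf7 1.12 ± 0.51 (SD, n = 8 each), above 45.8%, 42.1% and 40.2% of gene starts, and each of these ranges overlapped that of its neighbour. Irf7 is the factor that amplifies interferon transcription. The Ifit3 start held a peak in 6 of 8 libraries and averaged 0.67 ± 0.54. Over all genes the median start was 2.82, 60.4% of starts had a peak in all 8 libraries and 5642 (32.3%) had none. Isg15, with 3 ISRE cores in its window, and Oasl2, with none, both belonged to the 32.3% without a start peak.

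The regions within 5 kb of Isg15 lay at the ends of other genes. The region at chr4:156197142-156198287 lay 1137 bp beyond Isg15 at an end of Agrn, and had −log10 p values of 82.9 and 105 in PLX chow, 141 and 91.8 in control chow, 77.9 and 63.6 in Fn14 KO and 63.5 and 52.7 in Fn14 WT. A further region at chr4:156202707-156204295, 1889 bp before the Isg15 start, overlapped Perm1 and AW011738. Both were open in every library, and neither can be assigned to Isg15 by position alone.

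Usp18, the protease that removes Isg15 from proteins and blocks the interferon receptor, had 3 regions that were open in all 8 libraries. The region over its lower-coordinate end, chr6:121245213-121246259, had −log10 p values of 90.1 and 84.6 in PLX chow, 143 and 130 in control chow, 69.4 and 44.2 in Fn14 KO and 56.4 and 42.2 in Fn14 WT. A region 908 bp beyond the other end, which overlaps the predicted gene Gm44148, was of like strength at 99.1 and 117 in PLX chow, 132 and 111 in control chow, 79.5 and 70.1 in Fn14 KO and 62.6 and 48.2 in Fn14 WT. The third, inside the gene, was weaker in each library. These −log10 p values are the authors' values for each peak, and limma compared libraries only through their ranks.

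**Figure D2:**
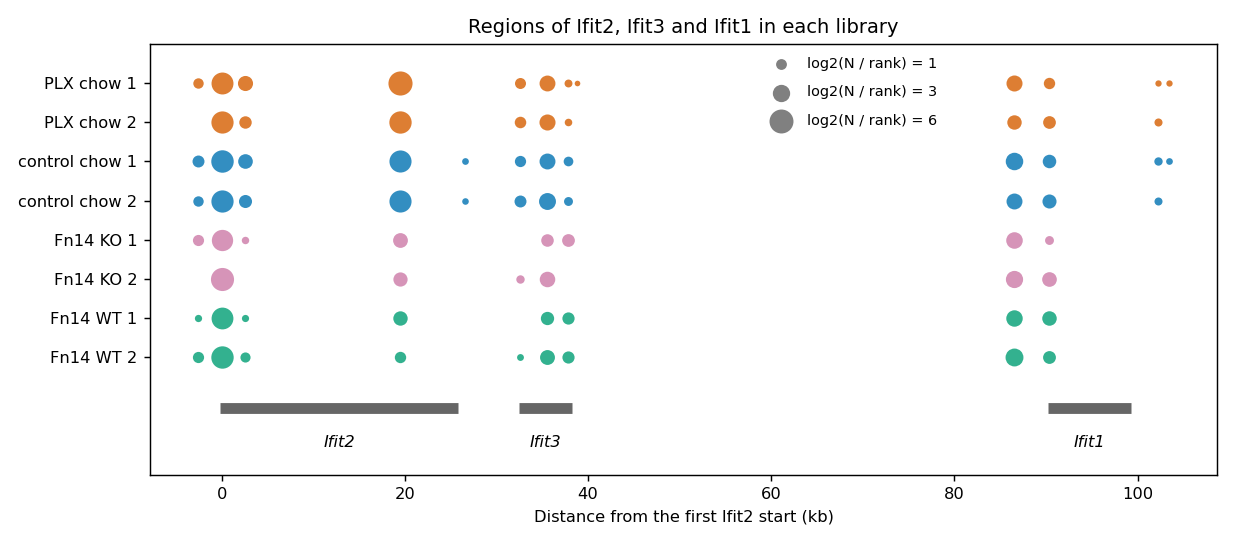
Regions of the Ifit2, Ifit3 and Ifit1 cluster in each library, placed by the distance of the region's centre from the first Ifit2 start in kb; the area of a point grows with log2(N / rank), and grey bars are gene bodies. The region 19449 bp into Ifit2 is large in the 4 dLGN libraries and small in the 4 section libraries, while the region at the Ifit2 start is of like size in all 8.

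The comparison of tissues set the 4 dLGN libraries (PLX chow and control chow) against the 4 section libraries (Fn14 KO and Fn14 WT). Tissue, age, chow and preparation cannot be told apart in it. The sections were younger, came from frozen brains and were of mice that received no treatment, while the dLGN libraries pool PLX chow with control chow. Genes of the Ifit cluster on chromosome 19 were more open in dLGN at 4 regions, and regions at Stat2 and Oasl2 were lower. Of the 27 tested regions, 6 passed limma's adjusted p threshold of 0.05 (22.2%), 4 higher and 2 lower, against a background of 20.2% higher and 18.1% lower among all 266442 regions (38.4% in both directions). The median difference of the 27 was 0.00 (dLGN minus sections) beside −0.01 over all regions, and their median absolute difference was 0.37 beside 0.46. At an unadjusted p under 0.05 there were 10 of the 27, beside 48.7% of all regions. The 9 genes did not move one way as a list, and the differences sat at single regions.

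The most different region lay inside Ifit2 at chr19:34569626-34570661, 19449 bp from its first annotated start, 5873 bp before its other end and 12458 bp before Ifit3. Its −log10 p was 324 and 209 in PLX chow and 262 and 221 in control chow, against 24.5 and 18.6 in Fn14 KO and 16.2 and 7.14 in Fn14 WT. The authors' fold enrichment of the peak was 20.8, 16.8, 17.1 and 15.7 in the same dLGN libraries, against 6.06, 5.13, 5.06 and 3.43 in the section libraries. All dLGN libraries were above all section libraries on both measures. The −log10 p scale ran higher in dLGN, where the strongest region of a library had 2010 to 2720, against 826 to 935 in sections.

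By rank this region stood at 2841, 5336, 5757 and 5729 in dLGN, against 44411, 50362, 48548 and 87679 in the sections. On the log2(N / rank) scale it averaged 5.34 ± 0.49 in dLGN and 1.79 ± 0.45 in sections (SD, n = 4 each), a difference of 3.55 ± 0.27 (SE, limma adjusted p = 0.00024), or an 11.7-fold difference in rank. Among all tested regions 718 (0.269%) had a difference at least this high. With 4 libraries against 4 the smallest exact 2-sided permutation p is 0.0286.

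In the dLGN this intragenic region was as high as the Ifit2 start, at which the tissue difference did not pass the test. The Ifit2 start, chr19:34550213-34551196, had −log10 p values of 197, 202, 285 and 227 in the dLGN libraries, against 127, 163, 123 and 112 in the section libraries. Its log2(N / rank) averaged 5.11 ± 0.10 in dLGN and 5.09 ± 0.38 in sections (SD, n = 4 each), and the difference was 0.02 ± 0.21 (SE, limma adjusted p = 0.95). Although the −log10 p values did not overlap, the ranks did. A smaller intragenic region at chr19:34552892-34553645, 2574 bp from the first start, had −log10 p values of 34.2, 15.3, 36.8 and 18.8 in dLGN, against 5.13, none, 3.79 and 5.65 in sections. It averaged 1.82 ± 0.38 in dLGN and 0.36 ± 0.35 in sections (SD, n = 4 each), a difference of 1.46 ± 0.27 (SE, limma adjusted p = 0.0061). It was 0.10 with lists of 50000 regions (adjusted p = 0.27) and 1.27 with only WT and control chow (adjusted p = 0.063).

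The Ifit3 start, which carries both ISRE cores shown above, was open in all dLGN libraries and in only 1 library of each section group. Its region, chr19:34582990-34583633, had −log10 p values of 10.7 and 11.8 in PLX chow and 13.7 and 13.8 in control chow, against none and 5.5 in Fn14 KO and none and 3.29 in Fn14 WT. It averaged 1.15 ± 0.10 in dLGN and 0.18 ± 0.24 in sections (SD, n = 4 each), a difference of 0.97 ± 0.21 (SE, limma adjusted p = 0.01). It was 0.21 (limma adjusted p = 0.049) with lists of 100000 regions. It was 0.77 (adjusted p = 0.1) where a peak had to cover 50% of the region, an alternative chosen after seeing the data. A region inside Ifit3 showed 42.8, 42.1, 52.8 and 57.8 in dLGN, against 14.4, 25.1, 12.5 and 15.8 in sections, and its difference of 0.69 ± 0.25 missed the threshold (SE, limma adjusted p = 0.066) although the groups did not overlap.

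At Ifit1 the start did not separate the tissues. Its region had −log10 p values of 11.8 and 16.2 in PLX chow and 26.6 and 25.7 in control chow, against 6.68 and 20.5 in Fn14 KO and 16.8 and 9.78 in Fn14 WT, and the difference was 0.01 ± 0.34 (SE, limma adjusted p = 0.99). A weak region 2708 bp beyond the gene, inside the neighbouring paralog Ifit1bl1, was called higher in dLGN, with 3.46, 5.12, 6.62 and 5.21 in dLGN and no peak in the sections. Its difference was 0.37 ± 0.10 (SE, limma adjusted p = 0.024). The call was lost with a q-value limit of 0.05 (0.20, adjusted p = 0.079), with only WT and control chow (0.45, adjusted p = 0.054), and at a difference of 0.37 without Fn14 KO 1 or Fn14 KO 2 (adjusted p = 0.051 and 0.053). Ifit1 held 4, 3, 4 and 4 regions in dLGN against 2 in each section library, and was the 1 member with more regions in every dLGN library, as were 5.56% of the 18697 genes with a region. No member had fewer, against 8.10% of genes. Ifit1, Ifit1bl1 and Ifit1bl2 are related and overlap in the gene table, so regions there cannot be given to 1 of them, and the authors' multimapping setting was 0.

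**Figure D3:**
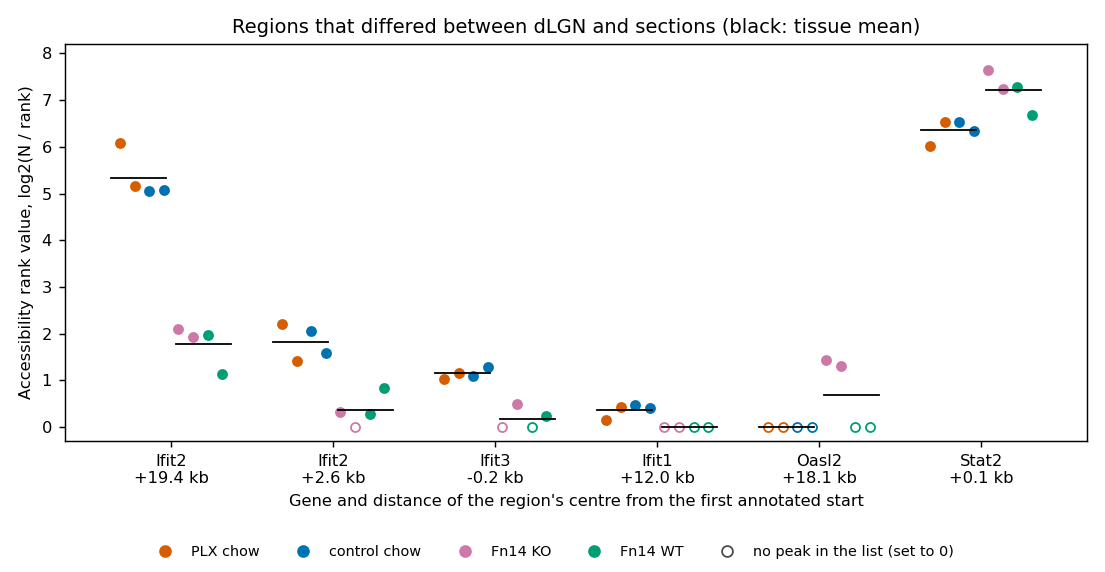
The 6 regions called between the tissues, as log2(N / rank), with 1 point per library, dLGN on the left and sections on the right of each pair, and the mean of each tissue in black. The widest gap is at the Ifit2 region 19449 bp from the start (means of 5.34 in dLGN and 1.79 in sections), and the Stat2 start lies lower in dLGN (6.36) than in sections (7.21).

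Stat2 went the other way at its start. The region at chr10:128270146-128270999, which also overlaps Apof, stood at ranks 2983 and 2071 in PLX chow and 2068 and 2367 in control chow, against 963 and 1274 in Fn14 KO and 1231 and 1884 in Fn14 WT. It averaged 6.36 ± 0.25 in dLGN and 7.21 ± 0.40 in sections (SD, n = 4 each), a difference of −0.85 ± 0.22 (SE, limma adjusted p = 0.019). It was among the strongest regions of every library. The groups did not overlap, but the adjusted p was 0.065 without PLX chow 1, 0.054 without control chow 1, 0.072 without control chow 2, 0.056 without Fn14 KO 1 and 0.053 without Fn14 WT 1.

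Values at the Irf7 and Bst2 starts and before Isg15 lay in the same direction as Stat2 without passing the test. Irf7 had −log10 p values of 3.91, 10.4, 10.9 and 10.6 in dLGN, against 12.5, 9.95, 9.27 and 15 in sections, with a rank difference of −0.66 ± 0.27 (SE, limma adjusted p = 0.095). Bst2 had 27.9, 25.2, 22.4 and 41.4 in dLGN, against 25.1, 34.1, 27 and 17.8 in sections, with a rank difference of −0.52 ± 0.26 (SE, limma adjusted p = 0.16). The region before Isg15 had 20.3, 37.1, 21.6 and 31.5 in dLGN, against 46.3, 21.4, 44.6 and 23.4 in sections, with a difference of −0.92 ± 0.32 (SE, limma adjusted p = 0.057). On the rank scale the groups overlapped at Bst2 and Isg15 and not at Irf7, although the −log10 p values of Irf7 did overlap. In all, the tissues did not overlap in rank at 8 of the 27 regions (29.6%), against 33.7% of all tested regions.

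Some lists of cell type markers separated the tissues by number of regions and others overlapped. The 5 kb windows of the 12 microglial markers held 27 to 38 regions per dLGN library, against 46 to 61 per section library. The dLGN range pools 27 to 33 in PLX chow with 36 to 38 in control chow. By limma, 6 of their 66 tested regions were higher in dLGN (9.09%) and 26 lower (39.4%), against 20.2% and 18.1% of all regions. The windows of the cortical and hippocampal neuron list held 40 to 45 regions in dLGN, against 67 to 74 in sections, and those of the oligodendrocyte list 42 to 46 in dLGN, against 50 to 59 in sections. The other lists overlapped, with 197 to 216 thalamic neuron regions in dLGN, against 163 to 224 in sections, 37 to 54 endothelial regions in dLGN, against 40 to 47 in sections, and 34 to 43 astrocyte regions in dLGN, against 39 to 41 in sections. Of the cortical and hippocampal list limma called 6.49% of regions higher in dLGN and 24.7% lower, and of the oligodendrocyte list 16.9% and 22.0%. Higher and lower shares were 15.0% and 11.2% for thalamic neurons, 12.5% and 17.2% for endothelial cells and 18.8% and 16.7% for astrocytes. Fewer regions in every dLGN library were held by 25.0% of microglial, 42.9% of cortical and hippocampal and 25.0% of oligodendrocyte markers, against 8.10% of genes. Single microglial regions went both ways. The P2ry12 start had −log10 p values of 76.3, 64.9, 137 and 78.3 in dLGN, against 16, 15.3, 21 and 23.8 in sections. The Cx3cr1 start had no peak in dLGN, against none, 4.51, 6.04 and 4.27 in sections. No marker gene but 1 of the endothelial list was without a region in all 8 libraries. Their part in the differences at the interferon response genes was not tested. In bulk tissue, fewer nuclei with an open region and less opening per nucleus cannot be told apart.

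**Figure D4:**
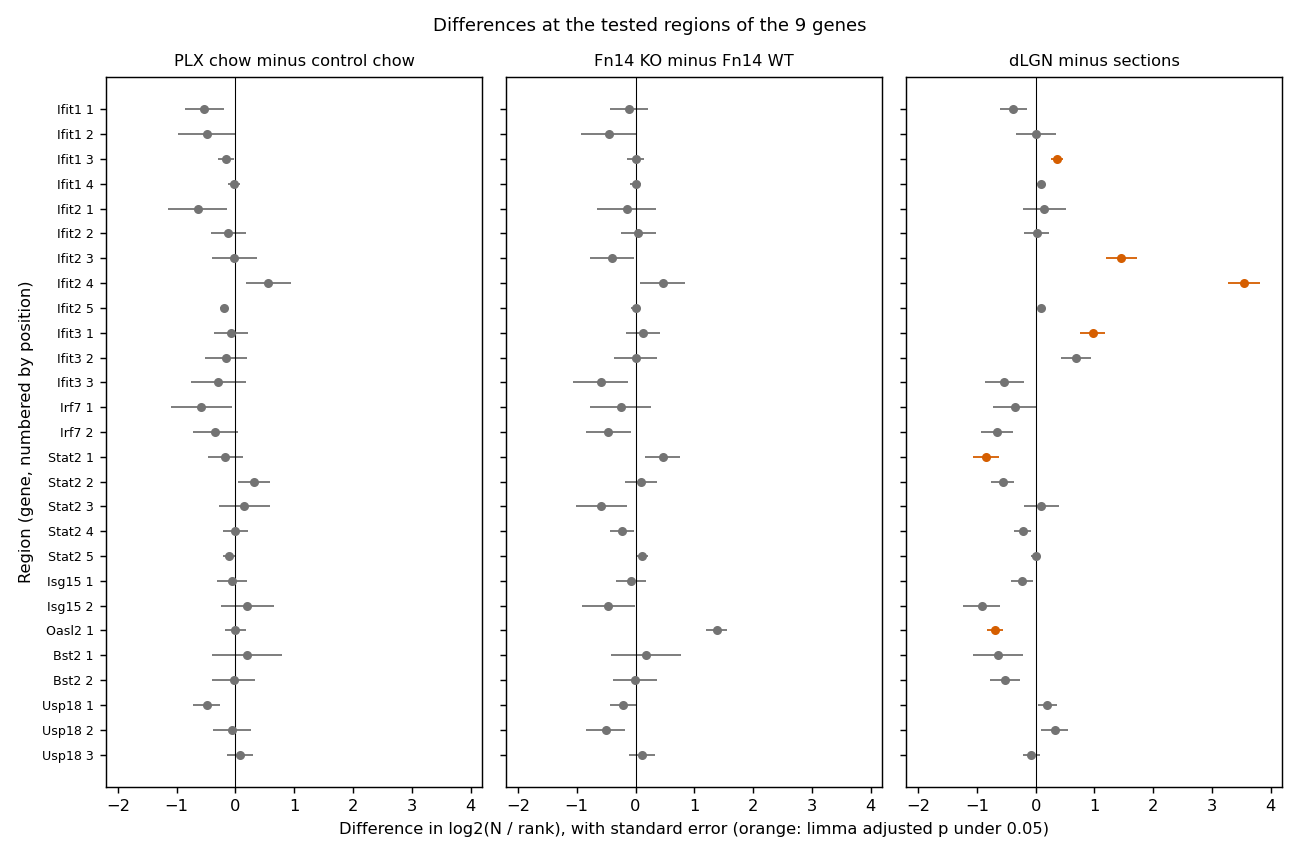
Difference in log2(N / rank) at each of the 27 tested regions of the 9 genes in the 3 comparisons, with its standard error; regions that passed limma's adjusted p threshold of 0.05 are orange. The 6 orange regions are all in the tissue comparison, with 4 to the right and 2 to the left of 0.

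The chow comparison asked whether these genes differ in dLGN after treatment aimed at removing microglia. No region of the 9 genes passed the test: limma called 0 of 27, beside 0 of 266442 over the genome (background 0%), and 1 of the 27 had an unadjusted p under 0.05, against 5.17% of all regions. The smallest adjusted p was 0.84 for the 9 genes and 0.33 over all regions. The differences (PLX chow minus control chow) were negative at 19 of the 27 regions and positive at 6, with a median of −0.08 beside 0.00 over all regions, and the median standard error was 0.33. The design was small, since 2 libraries against 2 cannot go below an exact permutation p of 0.333.

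On the rank scale the diets did not overlap at 8 of the 27 regions (29.6%), against 22.5% of all tested regions. The Ifit2 start was among them, with a rank difference of −0.12 ± 0.30 (SE, limma adjusted p = 1). At the Ifit1 start the −log10 p was 11.8 and 16.2 in PLX chow, against 26.6 and 25.7 in control chow, with a rank difference of −0.49 ± 0.48 (SE, limma adjusted p = 1). At the Usp18 lower end it was 90.1 and 84.6 in PLX chow, against 143 and 130 in control chow, with a rank difference of −0.49 ± 0.23 (SE, limma adjusted p = 1). The groups did not overlap at either region. The Ifit2 intragenic region was placed the other way, at 6.08 and 5.17 in PLX chow, against 5.06 and 5.07 in control chow on the log2(N / rank) scale, with a difference of 0.56 ± 0.38 (SE, limma adjusted p = 1). PLX chow 1 was the highest of the 4 libraries there by a wide margin.

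By number of regions, 2 of the 9 genes had fewer in both PLX chow libraries than in either control chow library, as did 6.55% of the 18697 genes with a region, and none had more, against 7.63%. Ifit2 held 4 and 3 regions in PLX chow, against 5 and 5 in control chow. Irf7 held 1 and 2 in PLX chow, against 3 and 4 in control chow. Counted as shared regions, a count chosen after seeing the data, Irf7 had 1 and 2 in PLX chow, against 2 and 3 in control chow, so that the diets tied, and Ifit2 was the 1 gene left with fewer. At Ifit2 the missing ones were weak: a region 518 bp beyond the gene was absent from both PLX chow lists and had −log10 p values of 4.7 and 3.88 in control chow, and that 2278 bp before the gene had 9.17 and none in PLX chow, against 16.7 and 8.95 in control chow. The region inside Irf7 had no peak and 9.25 in PLX chow, against 9.09 and 15.6 in control chow.

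The microglial list held 27 to 33 regions in PLX chow, against 36 to 38 in control chow, and P2ry12, a purine receptor that marks homeostatic microglia, held 7 and 6 in PLX chow, against 10 and 9 in control chow. The counts overlapped at Csf1r, the receptor that keeps microglia alive, with 3 and 1 in PLX chow, against 3 and 4 in control chow. They also overlapped at the microglial genes Cx3cr1, with 3 and 5 in PLX chow, against 3 and 3 in control chow, and Tmem119, with 1 and 1 in PLX chow, against 0 and 2 in control chow. Of the 12 microglial markers, P2ry12 and Trem2 had fewer regions in both PLX chow libraries (16.7%, against 6.55% of all genes) and 0 had more (against 7.63%). Limma called 0 of the 66 tested regions of this list by diet, with a median difference of 0.00. Other lists also separated the diets, with more regions in PLX chow. The oligodendrocyte list held 46 in each PLX chow library, against 42 to 45 in control chow. The cortical and hippocampal list held 44 to 45, against 40 to 43. The thalamic neuron, endothelial and astrocyte lists overlapped. The part of these marker differences in the values at Ifit2 and Irf7 was not tested.

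**Figure D5:**
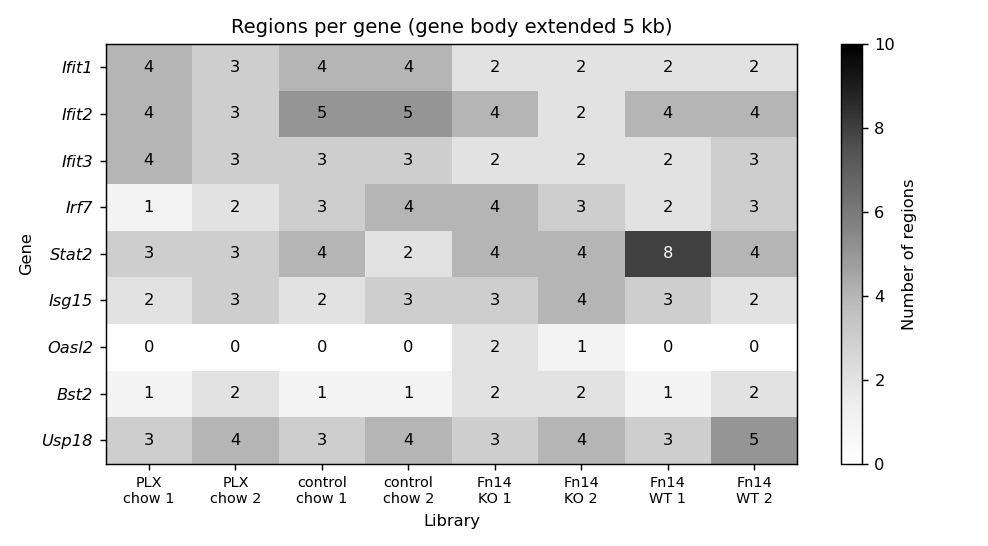
Number of regions in each of the 9 genes extended by 5 kb, with libraries in columns and genes in rows. Ifit1 holds 3 or 4 regions in each dLGN library and 2 in each section library, and Oasl2 holds 2 and 1 in Fn14 KO and none elsewhere.

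The genotype comparison asked whether the absence of Fn14 was accompanied by other accessibility at these genes in sections. Again limma called 0 of 27 regions, beside 0 of 266442 (background 0%), and 1 of the 27 had an unadjusted p under 0.05, against 12.5% of all regions. The median difference (Fn14 KO minus Fn14 WT) was −0.01 for the 9 genes beside 0.00 over all regions. The differences at the starts were 0.05 ± 0.30 at Ifit2, −0.45 ± 0.48 at Ifit1, 0.13 ± 0.29 at Ifit3, −0.46 ± 0.39 at Irf7, 0.46 ± 0.30 at Stat2 and −0.01 ± 0.37 at Bst2 (difference in log2(N / rank), SE). Among these starts the groups overlapped everywhere but at Irf7, and over the 27 regions they did not overlap at 5 (18.5%), against 26.9% of all tested regions. The microglial list held 56 regions in each Fn14 KO library, against 46 to 61 in Fn14 WT, and limma called 0 of its 66 tested regions. Of its 12 genes, 3 (Trem2, Spi1 and C1qa, 25.0%) had more regions in both Fn14 KO libraries, against 11.6% of all genes, and 0 had fewer. Fewer regions in both Fn14 KO libraries were held by 3 of 8 endothelial, 3 of 6 thalamic neuron and 2 of 4 oligodendrocyte markers. This held for 9.80% of all genes. In each of these lists 1 marker had more. The oligodendrocyte list held at most 53 regions per Fn14 KO library, against 55 to 59 in Fn14 WT. The totals of the other lists overlapped. The part of these marker differences in the values at Oasl2 was not tested.

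Oasl2 was the 1 gene that separated the genotypes by count, with 2 and 1 regions in Fn14 KO and none in Fn14 WT, and 11.6% of genes had more regions in both Fn14 KO libraries in the same way. None of the 9 had fewer, against 9.80% of genes. Oasl2 encodes a member of the 2′-5′-oligoadenylate synthetase-like family. The shared region, chr5:114914886-114915167, lay 2641 bp beyond the gene and had −log10 p values of 14.4 and 11.4, fold enrichments of 4.48 and 3.94 and ranks of 71001 and 77192 in Fn14 KO, and no peak in Fn14 WT or in the dLGN libraries. Its difference was 1.38 ± 0.18 (SE, limma unadjusted p = 0.00011, adjusted p = 0.079), and 1637 regions of the genome had that same smallest adjusted p. Because a library without a peak enters as 0, the spread of such a region is understated and its p is too small, and the same holds for its call as lower in dLGN (−0.69 ± 0.13, SE, limma adjusted p = 0.0061), which rested on the Fn14 KO libraries alone. In the lists before they were cut, the single further library with a peak in the Oasl2 window was control chow 1.

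A wider set of 62 genes of the interferon pathway gave the setting for the 9. In the tissue comparison 46 of its 291 tested regions were higher and 57 lower in dLGN by limma (15.8% and 19.6%), close to the background of 20.2% and 18.1%, and the median difference was −0.04. By role, ligands and receptors had 3 higher and 7 lower of 34, JAK-STAT and IRF factors 13 and 19 of 70, nucleic acid sensors 5 and 5 of 32, other induced effectors 18 and 15 of 102 and inhibitors 7 and 11 of 53. By number of regions, the genes with more in every dLGN library included Rtp4, Parp9, Parp14, Sp100 and Ddx60, and Ifnar1, Tyk2, Tap1 and Ptpn2 had fewer.

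The 5 genes of this set with the smallest adjusted p differed at regions inside the gene, some without a peak in 1 tissue and others present in all 8 libraries. Inside Herc6, which encodes the main ligase joining Isg15 to proteins in the mouse, a region at chr6:57605295-57606295 had no peak in dLGN, against −log10 p values of 66.9 and 71.3 in Fn14 KO and 47.4 and 74.1 in Fn14 WT, and averaged 3.95 ± 0.46 in sections on the rank scale (SD, n = 4), with a difference of −3.95 ± 0.25 (SE, limma adjusted p = 0.00018). Inside Ifnar1, a chain of the type I interferon receptor, a region at chr16:91497778-91498575 had 175 and 120 in PLX chow and 159 and 135 in control chow, against 13.8 and 5 in Fn14 KO and 15 and 6.53 in Fn14 WT, with rank-scale means of 4.31 ± 0.30 in dLGN and 1.18 ± 0.63 in sections (SD, n = 4 each) and a difference of 3.13 ± 0.31 (SE, limma adjusted p = 0.00051). Ifnar1 had a region higher in dLGN while holding fewer regions there in number. Ddx60, a helicase linked to RNA sensing, had 45, 35.2, 17.2 and 16.6 at chr8:61992869-61993491 in dLGN and no peak in sections, a difference of 1.90 ± 0.18 (SE, limma adjusted p = 0.00047). Inside Usp25, a deubiquitinase, a region at chr16:77034255-77035229 had 11.4, 18, 14.2 and 15.5 in dLGN, against 55.5, 55.1, 49.8 and 46.1 in sections, a difference of −2.28 ± 0.19 (SE, limma adjusted p = 0.00029). Inside Ptpn2, a phosphatase that acts on JAK and STAT proteins, a region had no peak in dLGN, against 23.7, 21.8, 25.3 and 20.8 in sections, a difference of −2.33 ± 0.17 (SE, limma adjusted p = 0.00022). With no peak in 4 libraries, the p-values at Herc6, Ddx60 and Ptpn2, like that of the region beyond Ifit1, are too small in the way described for Oasl2.

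Of the 291 tested regions of the wider set, limma called 0 by diet and 0 by genotype, with 17 or 5.84% (diet) and 38 or 13.1% (genotype) at an unadjusted p under 0.05, beside 5.17% and 12.5% of all regions. By number of regions, 5 of the 62 genes had more in both PLX chow libraries and 5 had fewer (8.06% each, against 7.63% and 6.55% of all genes). Adar, which edits double-stranded RNA, held 8 and 7 in PLX chow, against 5 and 6 in control chow, and the sensor gene Dhx58 held 2 and 2 in PLX chow, against 3 and 4 in control chow. Ptpn2 held 5 and 4 in PLX chow, against 3 and 2 in control chow, Xaf1 4 and 3 in PLX chow, against 5 and 6 in control chow, and Gbp3 1 and 1 in PLX chow, against 2 and 3 in control chow. In Fn14 KO, 4 genes had more and 2 fewer (6.45% and 3.23%, against 11.6% and 9.80%). Pias1, an inhibitor of STAT signalling, held 20 and 14 in Fn14 KO, against 9 and 7 in Fn14 WT, and the GTPase gene Gbp2 held 2 and 2 in Fn14 KO, against 4 and 6 in Fn14 WT. The kinase gene Jak1 held 23 and 26 in Fn14 KO, against 21 and 22 in Fn14 WT, Tyk2 4 and 7 in Fn14 KO, against 3 and 3 in Fn14 WT, and Trim25, a ligase in RNA sensing, 4 and 3 in Fn14 KO, against 2 and 2 in Fn14 WT.

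Across the 8 libraries the summed pattern of the 9 genes was narrow, with a mean over the genes' strongest regions of 2.93 and 3.03 in PLX chow, 3.07 and 3.14 in control chow, 3.25 and 3.48 in Fn14 KO and 3.22 and 3.27 in Fn14 WT on the log2(N / rank) scale. Among 16549 genes the patterns most like it were those of Efcab12 (Pearson r = 0.989), Cand2 (0.988) and Rpl32 (0.988). This is a description over 8 libraries that share their tissue grouping. Cand2 and Rpl32 share the same region. Efcab12 had the same values as they did in control chow 2, Fn14 KO 2 and both Fn14 WT libraries, so these genes are not separate matches. At Efcab12 the values were 4.19 and 4.52 in PLX chow, 4.68 and 4.65 in control chow, 5.18 and 5.97 in Fn14 KO and 5.17 and 5.26 in Fn14 WT.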

How the data were processed

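Per the deposited pipeline instructions, file names and labels, the authors ran the ENCODE ATAC-seq pipeline on paired-end reads, build mm10, with multimapping 0, a peak p threshold of 0.01 and at most 300000 peaks, called per sample. The aligner and peak caller were not stated. The submitters' processing notes name deepTools 3.5.0 without a step. The deposited lists give per peak a fold enrichment (ratio over background), a −log10 p-value, a −log10 q-value and a score, all used as the authors' values. Depth is unknown without read counts, and no counting interval was given.

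Overlapping peaks (1 bp or more) were merged per library with the highest −log10 p kept. Lists were cut to 192168 regions, the length of the shortest, and merged into 406435 regions, 266442 of them with a peak in at least 2 libraries. The value log2(N / rank) was fitted with limma 3.58.1 (R 4.3.3) over 4 groups and 8 libraries, without covariates, with Benjamini-Hochberg adjustment at 0.05. Genes were called by region counts where the libraries of the groups did not overlap. Members and lists were chosen with earlier results of these data known. Of 64 wider pathway genes, 62 matched RefSeq symbols. Those named were the 5 with the smallest adjusted p (tissue) or the widest count gap (chow, genotype). Likeness was Pearson's r of a gene's strongest region with the mean of the 9, among genes outside all lists. In simulated data over 266442 regions, 100 regions per size were changed in a comparison. They had a mean above 1, and the noise was normal without a floor at 0. The tissue comparison recovered 63% of changes of size 3 and 10% of size 1.5, and the chow comparison 22% and 0%. In the real data 38.4% of regions were called by tissue and many values were 0, so these rates do not give the sensitivity of the test there. Alternatives were 100000, 50000 or all regions, a q-value limit of 0.05, other filters, overlaps and gene windows, only WT and control chow, a replicate block, and each library left out.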

Additional observations from a re-analysis of the deposited data

Results flagged for a closer look

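In each tissue the 4 libraries, which pool both diets or both genotypes, were compared at the regions with a peak in all 4. There were 33 such groups of 4, and in 3 of them 1 library stood apart from the others. By chance about 1 in 20 groups would. PLX chow 1 had 6.08 on the log2(N / rank) scale at the Ifit2 region chr19:34569626-34570661, against 5.06 to 5.17 in the other dLGN libraries. Control chow 2 had 2.85 at the region inside Ifit3, against 2.48 to 2.54 in the others. Fn14 WT 2 had 2.06 at the Irf7 start, against 1.16 to 1.30 in the other section libraries.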

How the results depend on the processing

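The Ifit2 region 19449 bp into the gene kept its call in 9 alternatives, with differences of 3.35 to 4.04 and adjusted p of at most 0.023 in limma, and of 3.33 to 3.78 without each library. Of 122 counts recomputed, 101 stayed within 1.5 times and 21 moved. Of 45 differences at called regions, 39 kept their call and 6 lost it, and 0 reversed. The 45 leave out called regions that could not be tested in an alternative. These were the regions of Ifit1, Ifit3 and Oasl2 with 50000 regions, of Ifit1 with 100000, and of Oasl2 with only WT and control chow. Called regions lacking a peak in some library were left out where only regions in all 8 libraries were tested. An overlap of 50% of the shorter region is among these alternatives. It is met by construction and repeats the main result, so its counts and differences stayed the same by design and say nothing on stability. For the moved counts the cause was not tested. Genes with fewer regions in PLX chow (2) were 0 with 100000 or 50000 regions, 1 with no extension and 1 with shared regions counted per gene, an alternative added after seeing the data. Genes with more in Fn14 KO (1) were 0 with 50000 regions or no extension and 2 with all deposited regions or 10 kb. Genes with more in dLGN (1) were 0 with 100000 or 50000 regions, a q-value limit of 0.05 or no extension, and 2 with only WT and control chow. Regions higher in dLGN (4) were 2 with 50000 regions, with only regions in all 8 libraries and with only WT and control chow. Regions lower in dLGN (2) were 1 with 50000 regions or no extension, 4 with 10 kb and 0 with only WT and control chow. Counting a peak as present only where it covered 50% of the region, an alternative chosen after seeing the data, gave 1 region higher in Fn14 KO. Over all regions, where limma had called 0 by genotype and 0 by diet, that cover called 5478 higher and 1136 lower in Fn14 KO and 57 higher and 112 lower in PLX chow, and testing only regions in all 8 libraries called 81 higher and 145 lower in Fn14 KO.

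Without each library, genes with more regions in PLX chow were 0 to 1 and with fewer 2 to 3, genes with more in Fn14 KO 1 to 3 and with fewer 0 to 2, regions higher in dLGN 3 to 4 and lower 0 to 3, and genes with more in dLGN 1 to 2 and with fewer 0 to 1. Regions called by diet or genotype stayed at 0. Beside the calls reported above as lost, that at the Stat2 start was lost with only WT and control chow (−0.54, limma adjusted p = 0.2). The Oasl2 region could not be tested with only WT and control chow or without either Fn14 KO library, since fewer than 2 libraries held it. Replicate numbers are shared between groups in the labels without a stated pairing, and same-numbered libraries correlated at −0.0246 (PLX and control chow) and 0.199 (Fn14 KO and WT), and they were treated as unpaired. With the replicate block, regions higher in dLGN were 5 and the other counts at the 9 genes were as before.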
